A study of Mus musculus with 6 samples.

Results

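High-fat feeding was compared with a low-fat Control diet in mouse gastrocnemius, the large calf muscle, whether or not the high-fat diet carried a supplement of iron and a heme precursor. All 6 arrays of the series were used, 4 from high-fat mice and 2 from Control mice, and each high-fat array was set against the Control array of the same fasting time. Of 11537 genes tested, 53 passed the test for high fat (0.459%), 32 of them higher (0.277%) and 21 lower (0.182%). The test was limma's with fasting time as a block and a Benjamini-Hochberg adjusted p under 0.05. The genes are described below by their signal in every array, by group, and by how far the 2 high-fat diets differed from each other.

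The mice were male C57BL/6J and ate their diets for 15 weeks from the age of 6 weeks. Control mice ate food with 10 kcal% fat, and HF mice ate food with 60 kcal% fat. HF+SFC+ALA mice ate the HF food plus 0.023% by weight of the iron salt sodium ferrous citrate (SFC) and 0.2% of 5-aminolevulinic acid phosphate (ALA), from which cells build heme. Muscles were taken after a fast of 4 h or 24 h, and every pairing of diet and fast was 1 array of pooled RNA without a replicate. The protein share of calories was the same in both foods, but the HF food held less carbohydrate, so more fat and less carbohydrate cannot be told apart. The labels also give an age of 21 months, which does not match the stated start and duration, and no result here uses it.

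When food is scarce, muscle shifts from glucose to fatty acids, and transcription factors of the FoxO family, held back by insulin, and the glucocorticoid receptor switch on genes for protein breakdown and autophagy. A diet rich in fat supplies fatty acids that act on nuclear receptors of the PPAR family, which raise genes of mitochondrial and peroxisomal fat oxidation. Muscle also holds fibroblasts, tendon cells, macrophages and fat cells, whose RNA is measured together with that of the fibres. In such bulk RNA, fewer cells of a type and less RNA per cell cannot be told apart.

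The arrays were alike in level, with a median signal of 63.2 to 69.7. The 3' to 5' ratio of control probe sets is a sign of RNA quality. For actin it was 1.08 and 1.09 in the Control pools and 1.15 to 1.52 in the high-fat pools, highest in HF at 4 h. For Gapdh it was 0.842 and 0.863 in the Control pools and 0.814 to 0.843 in the high-fat pools, without such a rise. The part of RNA quality in the results was not tested. Muscle identity was plain in every pool: Myh4, the fastest myosin heavy chain, had a signal of 42951 to 50008. Signals under 26.4, the 30th percentile of probe sets, were set to that floor, and signal is compared for 1 gene across pools, never between genes.

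All 53 genes had the same sign in all 4 pairs, against 4276 of all genes (37.1%; 17.5% higher and 19.6% lower). In 19 of them each pair differed by 1.5-fold or more, 16 higher and 3 lower. High-fat and Control pools were without overlap in each of the 32 higher genes and in 13 of the 21 lower ones, against 21.1% of all genes. Because the same contrast chose the genes, nothing is read from these counts or from a lack of overlap given below for called genes. Across all genes, 68 met the 1.5-fold limit in 1 direction (0.589%), 58 higher (0.503%) and 10 lower (0.0867%). Another 24 met it with mixed directions (0.208%). The calls depended on single pools: 5 genes, all higher, passed without Control at 24 h, 8 without HF+SFC+ALA at 4 h, 17 without HF at 4 h and 21 without HF at 24 h, although each of the 53 kept its direction. The count fell to 8 without the fasting block, 8 with the mean over a gene's probe sets, 4 without the filter on signal and 1 without the intensity trend. Just inside the threshold lay Ece1, Dhrs4 and Ulk1 at an adjusted p of 0.0486 in limma, and just outside Hadhb, Lims1 and Kpnb1 at 0.0503.

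**Figure D1:**
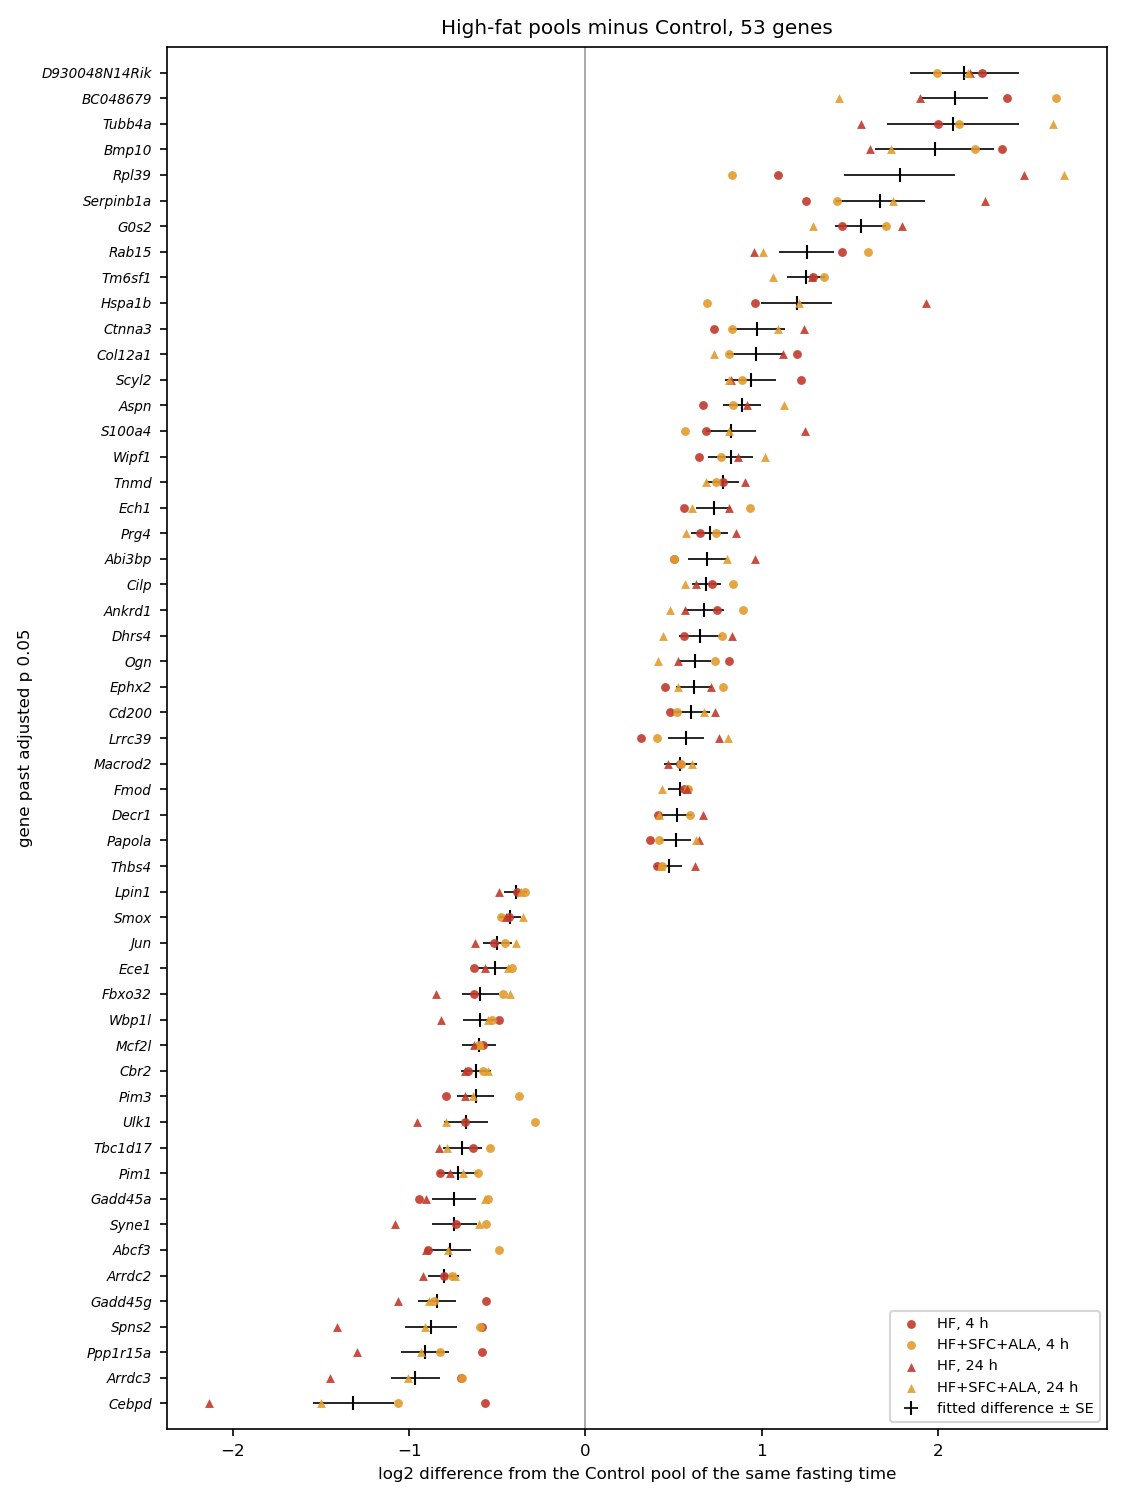
The 53 genes past the threshold, with 1 point for each high-fat pool minus the Control pool of the same fasting time (log2) and a bar for the fitted difference ± SE. The points of a gene lie on the same side of 0, and fitted differences run from -1.32 (Cebpd) to 2.15 (D930048N14Rik).

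Several genes of tendon and extracellular matrix rose. Tenomodulin (Tnmd), a membrane protein that marks tendon cells, had signals of 849.6 and 789 in the Control pools, 1458 and 1481 in the HF pools and 1417 and 1269 in the HF+SFC+ALA pools, the first value of each pair being 4 h and the second 24 h, as throughout. The 4 high-fat pools lay above both Control pools, and the difference was 0.78 ± 0.10 (SE) on the log2 scale, or 1.71-fold (limma adjusted p = 0.0133). Asporin (Aspn), a small leucine-rich proteoglycan, had signals of 817 and 713 in the Control pools, 1296 and 1348 in the HF pools and 1459 and 1558 in the HF+SFC+ALA pools, again without overlap. Its difference was 0.89 ± 0.11 (SE) (limma adjusted p = 0.0133). Aspn was also 1 of 4 genes that passed for each high-fat diet taken alone.

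Fibromodulin (Fmod), a proteoglycan that binds collagen fibrils, had signals of 5106 and 6469.8 in the Control pools, 7527 and 9637 in the HF pools and 7640.0 and 8729 in the HF+SFC+ALA pools. It rose by 0.54 ± 0.07 (SE) (limma adjusted p = 0.0142), and 5 further probe sets of Fmod differed by 0.48 to 0.99 in the same direction. Cilp, a secreted protein of cartilage, tendon and fibroblasts, had signals of 1486 and 1703 in the Control pools, 2443 and 2633 in the HF pools and 2654 and 2515 in the HF+SFC+ALA pools and rose by 0.69 ± 0.08 (SE) (limma adjusted p = 0.0133). Neither gene's high-fat pools overlapped its Control pools. Osteoglycin (Ogn, another proteoglycan) had 1715 and 2112 in the Control pools, 3013 and 3045 in the HF pools and 2857 and 2807 in the HF+SFC+ALA pools, a rise of 0.62.

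Col12a1, which encodes a collagen that decorates fibrils, rose by 0.97 ± 0.16 (SE) from 241 and 243 in the Control pools to 553 and 529 under HF and 423 and 404 under HF+SFC+ALA (limma adjusted p = 0.0372). Its second probe set, far dimmer, differed by -0.0013, and the mean of both gave 0.24. Other matrix genes past the threshold were Prg4 (lubricin, 0.70), Abi3bp (0.69) and Thbs4 (thrombospondin 4, 0.47). S100a4, a calcium-binding protein often used to mark fibroblasts, rose by 0.83 ± 0.14 (SE) from 713 and 492 to 1145 and 1165 under HF and 1055 and 863 under HF+SFC+ALA. In every one of these genes the 4 high-fat pools lay above both Control pools.

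Of 10 measured tendon markers, 3 passed the test, all higher (Tnmd, Fmod and Thbs4), against 0.277% of all genes. A positive difference was found in 9, against 49.0% of all genes, and the median was 0.51 against -0.0049. The same shares over all genes, with 0.182% passing as lower, apply to each list below. Summed tendon marker signal was 11928 to 12425 in the Control pools and 16807 to 19058 in the high-fat pools. Most of it came from the called Fmod, Thbs4 and Tnmd (5106, 3972 and 849.6 in Control at 4 h), so nothing is read from the sum. The tendon transcription factors did not pass: Scx had signals of 117 and 63.9 in the Control pools, 127 and 117 in the HF pools and 109 and 93 in the HF+SFC+ALA pools (0.35) and Mkx had 79.8 and 59.4 in the Control pools, 78.5 and 51.3 in the HF pools and 63.4 and 76.9 in the HF+SFC+ALA pools (-0.05). Among the members that missed the threshold, keratocan (Kera) differed by 0.68 (limma adjusted p = 0.0536). The share of tendon in each dissected muscle is not in the labels, and its part in these differences was not tested.

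The wider collagen and matrix list gave no calls among 23 measured members, yet 22 had a positive difference (49.0% of all genes) and the median was 0.45. Col3a1, a fibrillar collagen of loose tissue, had signals of 4759 and 2651 in the Control pools, 7051 and 6456 in the HF pools and 6350.0 and 4051 in the HF+SFC+ALA pools. Its HF+SFC+ALA pool at 24 h lay below the Control pool at 4 h, and the difference of 0.72 ± 0.16 (SE) had a limma adjusted p of 0.0908. Col1a2, a chain of type I collagen, differed by 0.74 under HF and 0.32 under HF+SFC+ALA, 2 values that share the Control arrays. Of 11 fibroblast markers none passed and 11 were positive, with a median of 0.32 and a summed signal of 58036 to 61312 in Control against 58492 to 69277 in high-fat pools. Most of that sum came from Gsn and Dcn, which differed by 0.01 and 0.04. Lumican (Lum), a member of that list, differed by 0.70 (limma adjusted p = 0.0521).

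Macrophage markers had higher values in high-fat pools without a call. In 12 of the 16 measured members the groups did not overlap (21.1% of all genes). All 16 had a positive difference (49.0% of all genes), with a median of 0.51. The sum of their signals was 4029 to 4689.8 in the Control pools and 5215 to 7289.5 in the high-fat pools. Mrc1, the mannose receptor of tissue macrophages, had signals of 201 and 191 in the Control pools, 370.1 and 399.7 in the HF pools and 432 and 289.8 in the HF+SFC+ALA pools, a difference of 0.91 ± 0.17 (SE) (limma adjusted p = 0.0521). C1qb, a chain of complement C1q, had 242 and 259 in the Control pools, 453 and 463 in the HF pools and 457 and 300.4 in the HF+SFC+ALA pools (difference 0.72, limma adjusted p = 0.118). The markers Itgam and Aif1 were too dim to be tested, and the part of macrophages in other differences was not tested.

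Lipid genes that rose included G0s2, whose protein inhibits adipose triglyceride lipase and so holds fat in droplets. Its signals were 466 and 336 in the Control pools, 1276 and 1166 in the HF pools and 1517 and 822 in the HF+SFC+ALA pools. Every high-fat pool was well above the higher Control pool, and the difference was 1.56 ± 0.14 (SE), or 2.95-fold (limma adjusted p = 0.00208). It stayed past the threshold when any 1 of the 6 pools was left out. Within the list of lipid droplet and lipolysis genes it was the 1 call among 15 measured, whose median was -0.02. Plin2, which coats droplets, had 862 and 576 in the Control pools, 631 and 809 in the HF pools and 737 and 822 in the HF+SFC+ALA pools and did not pass (0.08). Its difference without Control at 24 h was -0.34. Hilpda, another lipase inhibitor, differed by 0.63 (limma adjusted p = 0.169), and Cidea, a droplet protein of brown fat, by 0.92 (0.113).

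Ech1 and Decr1, auxiliary enzymes of unsaturated fatty acid oxidation, also rose. Ech1, which shifts double bonds in mitochondria and peroxisomes, had signals of 10056 and 12749 in the Control pools, 14826 and 22449.7 in the HF pools and 19169.8 and 19397 in the HF+SFC+ALA pools. Its groups did not overlap, and it rose by 0.73 ± 0.10 (SE), or 1.66-fold (limma adjusted p = 0.0216). Decr1, 2,4-dienoyl-CoA reductase, had 4756 and 5308 in the Control pools, 6315 and 8421 in the HF pools and 7169 and 7093 in the HF+SFC+ALA pools and rose by 0.52 ± 0.09 (SE) (limma adjusted p = 0.0372). Ephx2, soluble epoxide hydrolase, rose by 0.62 ± 0.10 (SE) and Dhrs4, a peroxisomal short-chain dehydrogenase, by 0.65 ± 0.12 (SE), both without overlap between groups (limma adjusted p = 0.0372 and 0.0486).

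Among 27 measured genes of fatty acid uptake and oxidation, Decr1 was the 1 call, and 22 differences were positive, with a median of 0.19. The auxiliary isomerases Eci1 and Eci2 differed by 0.34 and 0.30 and did not pass (limma adjusted p = 0.161 and 0.0967). Hadhb, a subunit of the trifunctional protein, had 17559 and 18226 in the Control pools, 23798 and 21486 in the HF pools and 23519 and 24745 in the HF+SFC+ALA pools (difference 0.38, limma adjusted p = 0.0503). Fabp3, the muscle fatty acid-binding protein, had 28049 and 33996 in the Control pools, 37762 and 48947 in the HF pools and 43905 and 40997 in the HF+SFC+ALA pools (0.47, limma adjusted p = 0.0521). The fatty acid receptor Cd36 had 8639.7 and 11916 in the Control pools, 10439 and 15348 in the HF pools and 12873 and 14298 in the HF+SFC+ALA pools, with the HF pool at 4 h below the Control pool at 24 h (0.37, limma adjusted p = 0.0979).

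Of 15 measured PPAR targets 0 passed, with 8 positive and 7 negative differences and a median of 0.03. Pdk4 and Ucp3 are among them. Pdk4, a kinase that inhibits pyruvate dehydrogenase, had 41206 and 46358 in the Control pools, 33192 and 46479.8 in the HF pools and 42574 and 45155 in the HF+SFC+ALA pools, a difference of -0.07 that was 0.01 without HF at 4 h. Ucp3, a mitochondrial carrier of the oxidation list that fatty acids induce, had 5431 and 5234 in the Control pools, 3409 and 4279 in the HF pools and 4942 and 5312 in the HF+SFC+ALA pools, a difference of -0.27. Lpin1, a phosphatidate phosphatase, fell by 0.40 (limma adjusted p = 0.0344), the 1 call among 18 genes of lipogenesis and triglyceride synthesis, whose median was 0.00. Scd1, which desaturates fatty acids, had 4706 and 2641 in the Control pools, 6231 and 5205 in the HF pools and 5426 and 2081 in the HF+SFC+ALA pools and did not pass.

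BC048679 had one of the highest differences. Its signals were 398 and 858 in the Control pools, 2086 and 3196 in the HF pools and 2525 and 2324 in the HF+SFC+ALA pools, without overlap, and its difference was 2.10 ± 0.19 (SE), or 4.28-fold (limma adjusted p = 0.00208). Tm6sf1, a membrane protein of lysosomes, had 389 and 472 in the Control pools, 952 and 1151 in the HF pools and 994 and 985 in the HF+SFC+ALA pools and rose by 1.25 ± 0.11 (SE) (limma adjusted p = 0.00208). Both stayed past the threshold with any 1 pool left out, and both were called in each high-fat diet alone. Serpinb1a, an inhibitor of neutrophil proteases, had 82.3 and 49.7 in the Control pools, 196 and 239 in the HF pools and 221 and 167 in the HF+SFC+ALA pools and rose by 1.67 ± 0.25 (SE) (limma adjusted p = 0.032). The GTPase Rab15, which acts in endosome recycling, had 167 and 229.6 in the Control pools, 459 and 445 in the HF pools and 507 and 462 in the HF+SFC+ALA pools and rose by 1.25 ± 0.16 (SE) (limma adjusted p = 0.014).

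For 3 further genes both Control pools lay under the floor, so their folds are lower bounds. Tubb4a, a tubulin best known from the nervous system, was at least 4.24-fold higher, Bmp10, a heart-derived growth factor, at least 3.95-fold, and D930048N14Rik at least 4.44-fold. With Control at the floor they passed the signal filter through the high-fat pools alone (mean log2 6.11, 6.04 and 6.15 against a minimum of 5.90), so they had to differ, and nothing is read from their place among the 53. Their high-fat signals were low as well, at 78.0 to 165.5 for Tubb4a, 80.9 to 135.6 for Bmp10 and 105.2 to 125.7 for D930048N14Rik. Rpl39, a small ribosomal protein with many near-identical pseudogenes, had 145 and 46.3 in the Control pools, 309 and 259.9 in the HF pools and 258 and 304 in the HF+SFC+ALA pools, and which copy the probe set reads is uncertain. It rose by 1.78 ± 0.32 (SE) (limma adjusted p = 0.0475), and the difference was 0.96 without Control at 24 h.

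The inducible chaperone Hspa1b, an HSP70, had signals of 1087 and 741 in the Control pools, 2117 and 2828 in the HF pools and 1749.9 and 1713 in the HF+SFC+ALA pools. All high-fat pools were above both Control pools, and it rose by 1.20 ± 0.20 (SE), or 2.29-fold (limma adjusted p = 0.0372). Hspa1a, its near-identical neighbour, had 962 and 590.3 in the Control pools, 1284 and 1416 in the HF pools and 1297 and 1134 in the HF+SFC+ALA pools (0.76, limma adjusted p = 0.0542), and hybridisation between the pair cannot be told apart. Hspa1b was the 1 call among 21 heat shock genes, of which 17 were positive with a median of 0.11. Dnaja4, a co-chaperone, differed by 0.49 (limma adjusted p = 0.116). Without Control at 24 h the difference was 0.42 for Hspa1a and 0.24 for Dnaja4. The stretch before the Hspa1b start (RefSeq, GRCm38.p6, chr17:34959239-34959358, minus strand) is shown because it holds a pair of the units that heat shock factors bind, GAANNTTC, in capitals.
Hspa1b: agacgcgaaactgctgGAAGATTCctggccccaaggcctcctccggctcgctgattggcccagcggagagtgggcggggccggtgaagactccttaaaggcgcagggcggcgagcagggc
GAANNTTC, searched on both strands in the 250 bases before each start, was in 6.69% of all 32851 promoter entries. It was in 15.6% of the 32 entries of genes that rose and in 6.25% of the 32 entries of genes that fell. A match is a description of letters.

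The remaining higher genes were grouped after their values were seen. Ctnna3, an alpha-catenin of heart and muscle, rose by 0.97 ± 0.16 (SE), Ankrd1, a titin-binding protein induced by stretch and injury, by 0.67 ± 0.11 (SE) and Lrrc39, a sarcomere protein, by 0.57. Lrrc39 differed by 0.36 without Control at 24 h. Ankrd1 had signals of 408 and 669 in the Control pools, 683 and 989 in the HF pools and 759 and 931 in the HF+SFC+ALA pools and was the 1 call among 17 myogenic and regeneration genes, whose median was 0.11. Within that list Csrp3, a muscle LIM protein, had 5432 and 3763 in the Control pools, 5785 and 13288 in the HF pools and 7072 and 10455 in the HF+SFC+ALA pools, high in the 24 h high-fat pools, and did not pass (limma adjusted p = 0.119). Mybph, myosin-binding protein H, had 1459.8 and 1508 in the Control pools, 5407 and 3645 in the HF pools and 3286 and 1848 in the HF+SFC+ALA pools (limma adjusted p = 0.097). Wipf1, a partner of the actin regulator WASP, rose by 0.82 ± 0.13 (SE), and Scyl2, a clathrin-coat pseudokinase, by 0.94 ± 0.14 (SE). Smaller rises were seen for Cd200 (0.60), an immune-inhibitory surface protein, Macrod2 (0.54) and the poly(A) polymerase Papola (0.51). When the mean over probe sets was taken, Ctnna3 differed by 0.57, Scyl2 by 0.49, Lrrc39 by 0.37, Macrod2 by 0.18 and Papola by -0.02.

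Among the genes that fell were 2 alpha-arrestins. These proteins link membrane cargo to ubiquitin ligases, and the best known of them, Txnip, limits glucose uptake. Arrdc2 had signals of 2084 and 2067 in the Control pools, 1194 and 1092 in the HF pools and 1232 and 1239 in the HF+SFC+ALA pools. The Control pools were nearly equal and every high-fat pool was lower, a fall of 0.81 ± 0.09 (SE) on the log2 scale, or 1.75-fold (limma adjusted p = 0.00868). It passed in 5 of 6 fits with 1 pool left out. Arrdc3 had signals of 1975 and 4010.4 in the Control pools, 1211 and 1469 in the HF pools and 1216 and 1996 in the HF+SFC+ALA pools, with the HF+SFC+ALA pool at 24 h just above the Control pool at 4 h. It fell by 0.96 ± 0.14 (SE), or 1.95-fold (limma adjusted p = 0.0284).

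Those were 2 of the 5 measured alpha-arrestins, and the other 3 did not pass. Over all genes 0.182% passed as lower. Txnip itself had 14793 and 18032 in the Control pools, 11215 and 14929 in the HF pools and 14529 and 17074 in the HF+SFC+ALA pools, a difference of -0.19 (limma adjusted p = 0.359) that was 0.02 with the mean over its probe sets. Arrdc1 and Arrdc4 had differences of 0.40 and 0.31, neither past the threshold. The family's median was -0.19.

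Genes of muscle wasting and FoxO control included 2 that fell. Of 26 measured, 2 passed, both lower (0.182% of all genes). A negative difference was found in 20 (5879 of all 11537 genes), and the median was -0.30 against -0.0049 over all genes. Fbxo32, which encodes the muscle ubiquitin ligase atrogin-1, had signals of 13711 and 25513 in the Control pools, 8834 and 14183 in the HF pools and 9899 and 18934 in the HF+SFC+ALA pools. At each fasting time the Control pool was the highest, but the 24 h high-fat pools exceeded the Control pool at 4 h. Fbxo32 fell by 0.60 ± 0.10 (SE), or 1.51-fold (limma adjusted p = 0.0437), and its other 2 probe sets differed by -0.62 and -0.34. Trim63, the partner ligase MuRF1, had 22109 and 29032 in the Control pools, 19731 and 18795 in the HF pools and 18585 and 23368 in the HF+SFC+ALA pools, a difference of -0.34 (limma adjusted p = 0.134).

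Gadd45a, a growth-arrest protein induced in wasting muscle, had signals of 1812 and 3167 in the Control pools, 941 and 1691 in the HF pools and 1233 and 2133 in the HF+SFC+ALA pools. It fell by 0.74 ± 0.12 (SE), or 1.67-fold (limma adjusted p = 0.0372), with the HF+SFC+ALA pool at 24 h above the Control pool at 4 h. Its relative Gadd45g had 2394 and 3322 in the Control pools, 1620.0 and 1587 in the HF pools and 1322 and 1798 in the HF+SFC+ALA pools, without overlap, and fell by 0.84 ± 0.11 (SE) (limma adjusted p = 0.0144). Gadd45a's upstream stretch (RefSeq, GRCm38.p6, chr6:67037408-67037527, minus strand) is shown for the letters TTGCNNAA, in capitals, searched here as a C/EBP motif. Whether any factor binds them was not tested.
Gadd45a: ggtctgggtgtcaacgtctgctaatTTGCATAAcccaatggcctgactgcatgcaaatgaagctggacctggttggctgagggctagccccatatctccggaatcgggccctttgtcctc
TTGCNNAA was in 3.12% of the entries of genes that fell, 9.38% of those of genes that rose and 9.56% of all.

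Ulk1, the kinase that starts autophagy, had signals of 3453 and 6345 in the Control pools, 2154 and 3277 in the HF pools and 2835 and 3667 in the HF+SFC+ALA pools and fell by 0.68 ± 0.12 (SE) (limma adjusted p = 0.0486). A second, dimmer Ulk1 probe set differed by -0.01, and the mean over probe sets by -0.34. Ddit4, an inhibitor of mTORC1 that FoxO and glucocorticoids induce, had 2104 and 4030.0 in the Control pools, 1667 and 1268 in the HF pools and 1113 and 1224 in the HF+SFC+ALA pools, the largest negative difference of the list at -1.16, and missed the threshold (limma adjusted p = 0.0521). It was -0.63 without Control at 24 h and -1.69 without Control at 4 h. Eif4ebp1, a translation brake, had 4734 and 10931 in the Control pools, 3558 and 4502 in the HF pools and 3463 and 5959 in the HF+SFC+ALA pools (-0.75, limma adjusted p = 0.0521), and -0.43 without Control at 24 h. Foxo1 itself had 1427 and 1606 in the Control pools, 1486 and 1167 in the HF pools and 1626 and 1131 in the HF+SFC+ALA pools (-0.18, limma adjusted p = 0.512), and its difference was 0.12 without Control at 24 h.

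Cebpd, a C/EBP transcription factor induced by glucocorticoids and cytokines, had the largest fall among the called genes. Its signals were 2783 and 6148 in the Control pools, 1874 and 1401 in the HF pools and 1332 and 2169 in the HF+SFC+ALA pools. Every high-fat pool lay below both Control pools, and it fell by 1.32 ± 0.23 (SE), or 2.49-fold (limma adjusted p = 0.0437). Its difference was -0.82 without Control at 24 h, and a much dimmer second probe set differed by 0.30. Cebpd was the 1 call among 16 glucocorticoid-responsive genes, of which 12 were negative with a median of -0.22. Klf15, a factor of amino acid breakdown in that list, had 1566 and 1937 in the Control pools, 1114 and 1447 in the HF pools and 1195 and 1281 in the HF+SFC+ALA pools (-0.48, limma adjusted p = 0.0521). Dusp1, a phosphatase of the same list, was on the other side at 0.50 (limma adjusted p = 0.0967).

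Ppp1r15a, the subunit that directs protein phosphatase 1 to eIF2alpha and restores translation after stress, had signals of 1114 and 2269.9 in the Control pools, 743 and 926 in the HF pools and 628 and 1188 in the HF+SFC+ALA pools. It fell by 0.91 ± 0.14 (SE), or 1.88-fold (limma adjusted p = 0.0304), with the HF+SFC+ALA pool at 24 h above the Control pool at 4 h. It was the 1 call among 17 genes of ATF4 and the stress response, whose median was -0.04, and Atf4 differed by -0.34 (limma adjusted p = 0.0521). The stretch before Ppp1r15a (RefSeq, GRCm38.p6, chr7:45526269-45526388, minus strand) is shown for the full cyclic AMP response element TGACGTCA, in capitals, that ends close to the start.
Ppp1r15a: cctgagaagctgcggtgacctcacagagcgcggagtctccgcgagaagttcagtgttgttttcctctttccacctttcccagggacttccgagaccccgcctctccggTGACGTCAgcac
TGACGTCA was in 1.55% of all promoter entries, 3.12% of those of genes that fell and 0 of 32 of those of genes that rose.

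The kinases Pim1 and Pim3, which phosphorylate proteins of survival and translation, fell together. Pim1 had signals of 709 and 996 in the Control pools, 399.9 and 583 in the HF pools and 465 and 615 in the HF+SFC+ALA pools, without overlap, and fell by 0.72 ± 0.11 (SE), at least 1.5-fold in each of the 4 pairs (limma adjusted p = 0.0338). Pim3 had 3649 and 5025 in the Control pools, 2113 and 3128 in the HF pools and 2807 and 3231 in the HF+SFC+ALA pools, also without overlap, and fell by 0.62 ± 0.10 (SE) (limma adjusted p = 0.0372). A stretch before a Pim1 start (RefSeq, GRCm38.p6, chr17:29492965-29493084, plus strand) held the one FoxO match, GTAAACA in capitals, among the genes that fell.
Pim1: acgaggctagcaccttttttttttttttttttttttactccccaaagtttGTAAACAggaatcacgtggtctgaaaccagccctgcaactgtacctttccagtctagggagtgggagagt
GTAAACA was in 3.12% of the entries of genes that fell, 0 of 32 of those of genes that rose and 3.17% of all 32851. Promoter entries were found for 42 of the 53 genes, 24 higher and 18 lower.

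Of 24 immediate early genes, Jun, a subunit of AP-1, was the 1 call. It had 4053 and 6772 in the Control pools, 2831 and 4379.6 in the HF pools and 2952 and 5156 in the HF+SFC+ALA pools and fell by 0.50 ± 0.08 (SE) (limma adjusted p = 0.0344), and the list's median was -0.11. Zfp36, which destabilises cytokine mRNAs, differed by -0.51 (limma adjusted p = 0.0536).

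Further genes that fell work in membranes, the nucleus and signalling. Spns2, which exports sphingosine 1-phosphate, had 4315 and 6967 in the Control pools, 2878 and 2626 in the HF pools and 2851 and 3708 in the HF+SFC+ALA pools and fell by 0.88 ± 0.15 (SE) (limma adjusted p = 0.0372). Syne1, the nuclear envelope anchor nesprin-1, had 2065 and 2691 in the Control pools, 1240.0 and 1274 in the HF pools and 1399 and 1770.2 in the HF+SFC+ALA pools and fell by 0.75 ± 0.13 (SE) (limma adjusted p = 0.038). Abcf3, an ABC-family ATPase, fell by 0.77 ± 0.12 (SE), but its second, dimmer probe set differed by 0.02. Tbc1d17, a Rab GTPase-activating protein, fell by 0.70, Cbr2, a mitochondrial carbonyl reductase, by 0.62 and Mcf2l by 0.60, each without overlap. Grouped after their values were seen, the others were Wbp1l (fell by 0.60), Ece1 (endothelin-converting enzyme, fell by 0.52) and Smox (spermine oxidase, fell by 0.43). The mean over probe sets gave -0.04 for Abcf3, -0.29 for Wbp1l, -0.08 for Ece1 and 0.08 for Smox.

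**Figure D2:**
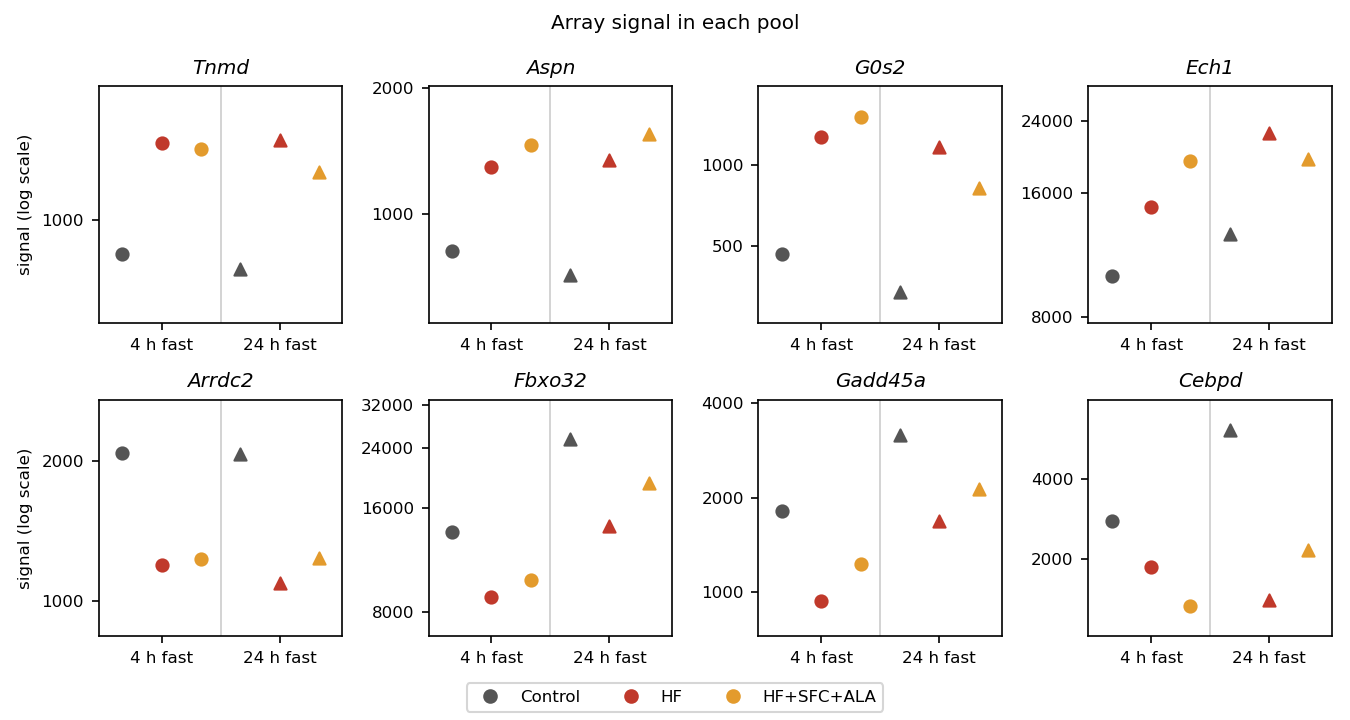
Array signal (log scale) in each of the 6 pools for 4 genes that rose (Tnmd, Aspn, G0s2, Ech1) and 4 that fell (Arrdc2, Fbxo32, Gadd45a, Cebpd), by fasting time, with 1 point per pool and no error bar because no pool was replicated. Tnmd in high-fat pools ran from 1269 to 1481 against 849.6 and 789 in Control, and Cebpd was highest in Control at 24 h (6148).

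Other groups had no calls. The insulin signalling list had 0 of 23 past the threshold and a median of -0.04. Within it Akt2, the main insulin kinase of muscle, had 4499.8 and 4739 in the Control pools, 3602 and 3419 in the HF pools and 3763 and 3782 in the HF+SFC+ALA pools (-0.34, limma adjusted p = 0.081; -0.15 under the mean over probe sets), and the glucose transporter Slc2a4 had 12772 and 11004 in the Control pools, 11298 and 10709 in the HF pools and 10879 and 11301 in the HF+SFC+ALA pools (-0.10). Irs2, an adaptor of the insulin receptor, differed by -0.43 (limma adjusted p = 0.137), and Grb14, which blocks that receptor, by 0.70 (0.142).

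The antioxidant list also had 0 of 21 called, with a median of -0.08. Gpx3, a secreted glutathione peroxidase, had 6501 and 9043 in the Control pools, 3951 and 5875 in the HF pools and 5369 and 5785 in the HF+SFC+ALA pools (-0.57, limma adjusted p = 0.0521), and Hmox1, which degrades heme, had 209 and 338 in the Control pools, 129.5 and 255 in the HF pools and 129.8 and 223 in the HF+SFC+ALA pools (-0.60, 0.146). The 16 iron handling genes and 19 heme genes had no call and medians of 0.02 and -0.01. Tfrc, the transferrin receptor, had 10076 and 4112 in the Control pools, 10052 and 3192 in the HF pools and 7826 and 3368 in the HF+SFC+ALA pools, low at 24 h on each diet (-0.26). Fibre type and mitochondrial lists were close to the median of all genes: -0.04 for slow fibres, -0.06 for fast fibres, 0.02 for the respiratory chain and 0.02 for the TCA cycle, with 0 calls. Myh7, the slow myosin, differed by -0.05, and its sign turned in 3 of the fits with 1 pool left out.

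**Figure D3:**
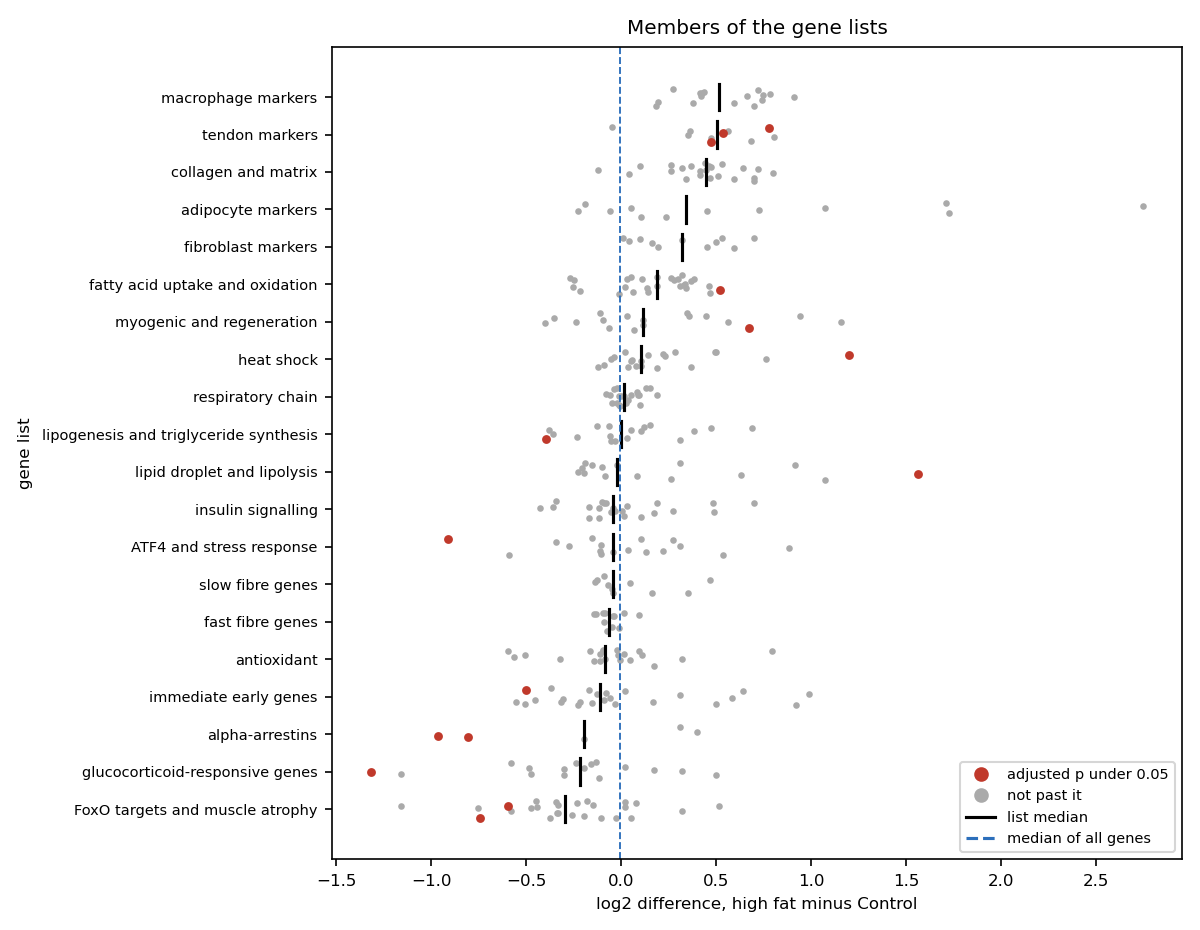
Differences between high-fat and Control pools (log2) for the members of 20 gene lists, with genes past an adjusted p of 0.05 in red, the median of each list as a black bar and the median of all genes as a dashed line. Among the lists drawn, tendon and macrophage markers have the highest medians (0.51 each) and genes of FoxO and atrophy the lowest (-0.30).

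How far the supplement moved these genes was tested directly between the HF+SFC+ALA and HF pools. None of 11537 genes passed (0%; 585, or 5.07%, at an unadjusted p under 0.05 in limma), and none of the 53 did, with 7 at an unadjusted p under 0.05. The spread behind the high-fat calls includes the difference between the 2 high-fat diets, so genes called had to have a small one, and these counts do not show that the diets act alike. The 53 genes had a median absolute difference of 0.0972 between the diets, and the median 95% interval reached 0.27 to either side. For G0s2 the difference was -0.13 (95% interval -0.50 to 0.25), for Tm6sf1 -0.08 (95% interval -0.37 to 0.20) and for Tnmd -0.13 (95% interval -0.37 to 0.10), intervals that hold 0.

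In 7 of the 53 genes the unadjusted interval did not hold 0. Between HF+SFC+ALA and HF, Gadd45a differed by 0.36 (95% interval 0.15 to 0.57) and Fbxo32 by 0.29 (95% interval 0.10 to 0.48). The other genes with higher signal under HF+SFC+ALA were Syne1 (0.32), Ulk1 (0.28) and Abcf3 (0.27). Hspa1b (-0.50) and Col12a1 (-0.39) were lower under HF+SFC+ALA. Of the 21 genes that fell, 20 were nearer to Control under HF+SFC+ALA than under HF, with Gadd45g the exception, and their median difference between the diets was 0.15. Of the 32 genes that rose, 21 were lower under HF+SFC+ALA than under HF and 11 were higher, with a median of -0.0465. All genes split 5627 higher to 5910 lower. No such split was taken over all genes with a negative or a positive high-fat difference, so nothing is read from these counts.

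Each diet set alone against the same 2 Control arrays gave 102 calls for HF (0.884%) and 4 for HF+SFC+ALA (0.0347%). The latter were BC048679, G0s2, Tm6sf1 and Aspn. Of the 53 genes, 34 passed for HF alone, 4 for both and 15 for neither. Side by side, the HF and HF+SFC+ALA differences were 1.29 and 1.21 for Tm6sf1, 0.79 and 0.98 for Aspn, and -0.86 and -0.75 for Arrdc2. They were -0.74 and -0.45 for Fbxo32. The count for HF+SFC+ALA was 0 under quantile normalization, and leaving out Control at 4 h gave 573 calls for HF and 419 for HF+SFC+ALA.

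**Figure D4:**
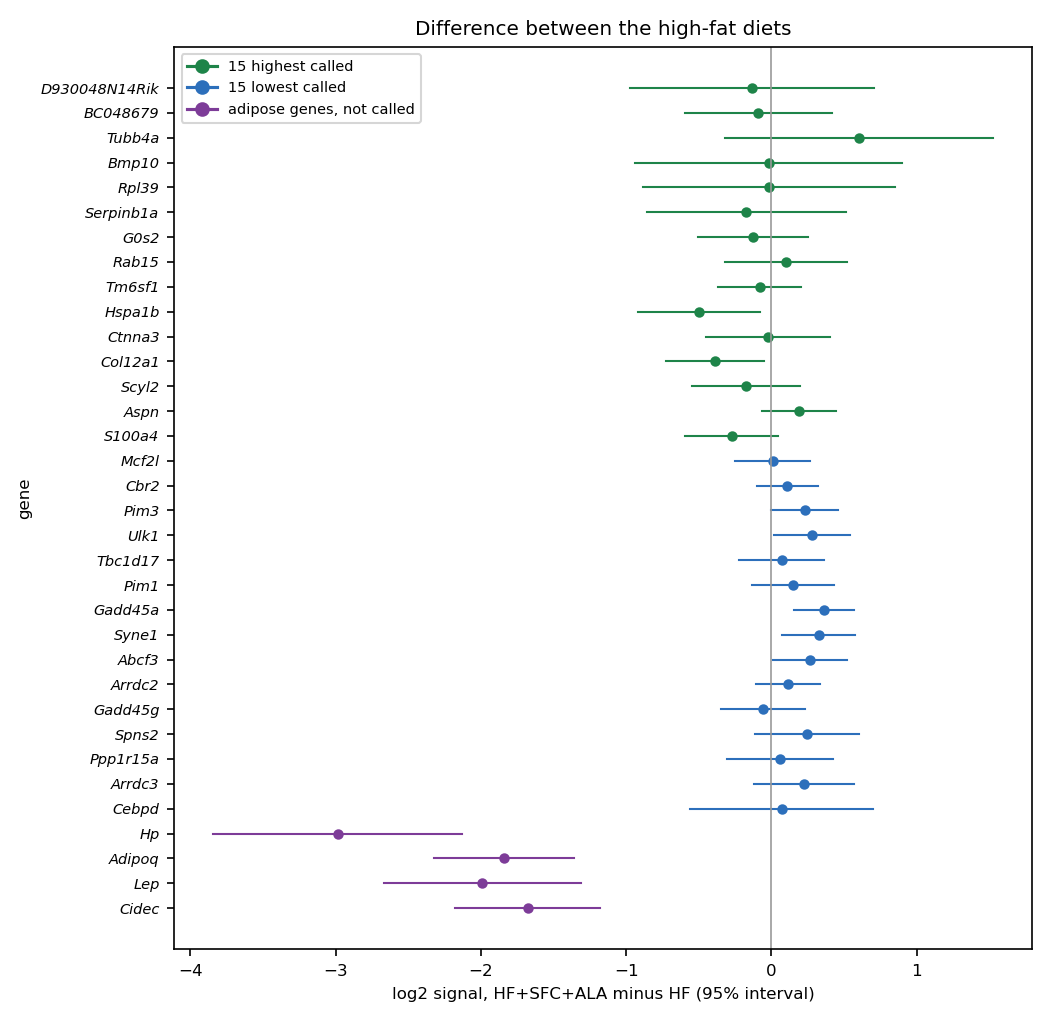
Difference in log2 signal between HF+SFC+ALA and HF with its 95% interval, for the 15 highest and 15 lowest genes past the threshold and 4 adipose genes that were not. The interval of most called genes holds 0, while Lep, Adipoq, Hp and Cidec lie between -2.99 and -1.68. These 4 do not stand for all fat-cell genes: the 12 measured adipocyte markers had a median of -0.21.

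Lep, Adipoq and Hp, genes of fat cells, passed for HF alone (limma adjusted p = 0.00288, 0.00288 and 0.0065) and neither for HF+SFC+ALA alone nor for high fat as a whole. Leptin (Lep), the satiety hormone of fat cells, had signals of 45.8 and 19.5 in the Control pools, 592 and 366 in the HF pools and 195 and 70.4 in the HF+SFC+ALA pools, and Control at 24 h was under the floor. Its mean log2 signal in Control, 5.12, lay under the signal filter, which Lep passed through the high-fat pools alone (mean log2 6.95 over all pools). Lep therefore had to differ from Control to be tested, and nothing is read from its call for HF alone. Lep did not pass for high fat as a whole (2.75, limma adjusted p = 0.0794), and the 2 high-fat diets differed by -1.99 (95% interval -2.67 to -1.31), short of the threshold (limma adjusted p = 0.0829). Adiponectin (Adipoq), another fat-cell hormone, had 901 and 577 in the Control pools, 4637 and 4280.0 in the HF pools and 1941 and 796 in the HF+SFC+ALA pools, with 2.63 for HF and 0.79 for HF+SFC+ALA against Control. Haptoglobin (Hp), which binds free hemoglobin, had 317 and 114 in the Control pools, 2940.3 and 1921 in the HF pools and 783 and 115 in the HF+SFC+ALA pools (limma adjusted p = 0.248). Cidec, which fuses fat droplets, had 159 and 97.5 in the Control pools, 689 and 318 in the HF pools and 179 and 119.5 in the HF+SFC+ALA pools. The 2 high-fat diets differed by -1.84 for Adipoq, -2.99 for Hp and -1.68 for Cidec (limma adjusted p = 0.0573 each).

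Of 10 measured adipokines and other factors secreted by fat 0 passed, 9 had a positive difference, and the median was 0.77. Of 12 measured adipocyte markers none passed, 9 had a positive difference, and the median was 0.34. Their summed signal, most of it from Car3 and Fabp4, was 77712 to 85260.1 in Control and 83714 to 97539 in high-fat pools. Lep and Retn at Control 24 h and Slc7a10 at HF+SFC+ALA 24 h were under the floor. Between HF+SFC+ALA and HF the 12 markers had a median difference of -0.21. Slc7a10 differed by -1.93 and Retn by -0.89, but Car3 by -0.13, Fabp4 by -0.10, Adig by -0.08 and Pparg by 0.53. Whether fat cells in the samples had a part in other differences was not tested.

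Whether the high-fat difference changed with fasting was tested by an interaction. It was past the threshold in 1 of 11537 genes (0.00867%; 579, or 5.02%, at an unadjusted p under 0.05), and in 0 of the 53, with 5 at an unadjusted p under 0.05. The 1 gene was Nmrk2, a kinase that makes NAD from nicotinamide riboside, with 6678 and 741 in the Control pools, 3919 and 2597 in the HF pools and 4678 and 2149 in the HF+SFC+ALA pools. High-fat pools were below Control at 4 h and above it at 24 h, a change of 2.31 (limma adjusted p = 0.00987). For the 53, the spread behind the high-fat calls includes any change with fasting, so genes called had to have a small one. Their count of 0 does not show that the difference is the same at both fasting times.

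Many of the genes that fell also had higher signal after the longer fast. In Control mice 9 of the 21 were at least 1.5-fold higher at 24 h than at 4 h (42.9%, against 6.04% of all genes), in HF mice 4 (19.0% against 5.76%) and in HF+SFC+ALA mice 6 (28.6% against 4.63%). Their median 24 h minus 4 h difference was 0.47, 0.28 and 0.38 in that order. For 14 of the 21, both high-fat pools at 24 h were below the Control pool at 4 h. The 21 were chosen as lower than Control, and in 13 every high-fat pool lay below both Control pools. No share over all genes was taken, so nothing is read from the count of 14. Cebpd was one of the 14, with 2169 for HF+SFC+ALA at 24 h against 2783 for Control at 4 h, and Fbxo32 was not. Arrdc2 showed no such fasting difference, at 2084 and 2067 in the Control pools. Since the fall was read against the same Control pools, these are descriptions, and each rests on 1 pool.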

How the data were processed

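Each probe set had 1 deposited intensity per array, linear and made by the authors with MAS5, per the submitters' processing notes. Neither the MAS5 settings nor the pool size was given in the sources used here. Trimmed of 2% of probe sets at each end, the mean was 500.004 on every array, so the arrays share a scale. Of 45101 probe sets, 64 controls were left out. The platform annotation lists 1 symbol for 34945 of the others, several for 932 and none for 9160, and the first kind were named. Signals under 26.4 were set to that floor (151 values in 140 genes), then log2 was taken. The probe set of highest mean stood for each of 18193 genes, and 11537 above the median probe set (log2 5.90) were tested, 7151 of them with several probe sets.

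limma 3.58.1 in R 4.3.3 (lmFit, eBayes with an intensity trend) fitted high fat and fasting time, with 3 residual and 7.29 prior degrees of freedom and Benjamini-Hochberg adjustment at 0.05. Models with 3 diets or an interaction had 2 residual degrees of freedom. The p-values rest on the spread between pools, which is not a spread between animals, and HF and HF+SFC+ALA pools are not replicates of one diet. The number of arrays limits the precision.

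The genes described, the gene lists, the rules and the alternatives were chosen with earlier results of these data known. Named genes were the 15 highest and 15 lowest differences past the threshold with 1 sign in all pairs, up to 4 members of each list described by smallest p, and a fixed set; the other called genes and single list members were named after their values were seen. Lists are given by counts and medians without a test. Promoter letters came from RefSeq entries (GRCm38.p6). Alternatives were quantile normalization, no or a stricter filter, no floor, a pseudocount, the mean over probe sets, no trend, 3 diets, no fasting time, a 2-fold limit and each pool left out. Figures used matplotlib 3.10.9 in Python 3.11.15.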

Additional observations from a re-analysis of the deposited data

Results flagged for a closer look

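In 4 of 118 genes examined (3.39%), 1 of the 4 high-fat pools stood apart from the others on the log2 scale, by a gap over the whole range above Dixon's 95% critical value. Its chance rate of about 1 in 20 groups holds for replicates of 1 condition. These pools are 2 diets at 2 fasting times, and called genes had to have a small spread among them. The rate therefore does not apply, and nothing is read from the count. The HF+SFC+ALA pool at 24 h was the lowest for Scd1 (gap 0.836 of the range, signal 2081), C1qb (0.949, signal 300.4) and Dnajb4 (0.989, signal 4584). For Gstm1, a glutathione transferase, the HF pool at 4 h was the lowest (0.945, signal 2638). The high-fat difference of Nmrk2 at 24 h exceeded that at 4 h by 2.31 in limma's interaction test (adjusted p = 0.00987). No gene passed that test without HF at 4 h, without HF+SFC+ALA at 4 h or without HF at 24 h.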

How the results depend on the processing

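All 53 genes called for high fat kept their direction in every alternative that gave a value, except Papola (-0.016) and Smox (0.084) under the mean over probe sets, where Txnip (0.019) and Txnrd1 (0.14), not called, also turned. The count of 53 became 4 without a filter (0 of the 53 among them), 82 at the 65th percentile (49 shared), 8 under the mean over probe sets, 1 without the trend (D930048N14Rik, whose Control pools are at the floor) and 8 without fasting time, and 5 to 57 with 1 pool left out. Genes 1.5-fold apart in all pairs went from 68 to 148 without a filter, 23 at the 65th percentile, 28 with a pseudocount, 36 under the probe set mean and 12 at 2-fold, and to 103 to 587 with a pool left out, where fewer pairs are required. The 102 calls for HF became 0 without a filter, 1 under the probe set mean and 0 without the trend, and 42 to 573 with a pool left out. The 4 for HF+SFC+ALA became 0 under quantile normalization, without a filter, under the probe set mean and without the trend, and 0 to 419 with a pool left out. The 0 between the high-fat diets became 6 at the 65th percentile and 0 to 109 with a pool left out. The 1 interaction call became 393 without a filter, 0 under the probe set mean, 0 without the trend and 0 to 2 with a pool left out, a fit that cannot be made without a Control pool. The causes were not tested. With 1 pool left out, signs turned for genes not called: Myh7 ran from -0.19 to 0.12 (0.077 without Control at 4 h, 0.12 without HF at 4 h, 0.062 without HF+SFC+ALA at 24 h), and Pdk4 from -0.14 to 0.010 (the latter without HF at 4 h). Plin2 ran from -0.34 to 0.50, Ppargc1a from -0.31 to 0.61, Foxo1 from -0.48 to 0.12 and Nmrk2 from -0.64 to 1.67, with the turned sign without Control at 24 h in each, and Ppargc1a was -0.031 without HF at 24 h. No paired analysis was possible because the labels give no replicate numbers and each diet and fasting time is 1 pool; pools are matched by fasting time alone, which the model already holds as a block. Among 27 called genes with other probe sets above the filter, 28 of 36 such probe sets had the same direction. Signal near the floor limits Tubb4a, Bmp10 and D930048N14Rik. Of 65 named genes that were not called, 24 moved by over 1.5 times with some 1 pool left out.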

Other observations

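Some called genes are neighbours on the chromosome in the RefSeq gene table. Aspn and Ogn lie on chromosome 13 in a run of 4 proteoglycan and matrix genes with Ecm2 and Omd. Ecm2 differed by 0.35 (limma adjusted p = 0.24) and Omd by 0.15 (limma adjusted p = 0.694). All 4 genes were higher in each of the 4 pairs, as were 17.5% of all genes. Aspn and Ogn were chosen by that contrast, so nothing is read from the shared direction. BC048679 and Tm6sf1, both called in each high-fat diet alone, lie on chromosome 7 with 6 protein-coding genes between them. The 5 of these that were tested (Fsd2, Whamm, Homer2, 3110040N11Rik and Btbd1) differed by -0.16 to 0.35, and none was past the threshold.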
